A study of Mus musculus with 4 samples.

Results

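High-fat high-sucrose (HFHS) chow was compared with standard (STD) chow in the epididymal white fat of flox/y control mice, with 1 mouse and 1 array on each chow. The difference was taken as the HFHS log2 value minus the STD log2 value for every gene, and a gene entered the comparison where it was at or above the average of the array's negative controls, called background here, on both arrays. Of 22180 genes with a single symbol, 10170 met this rule. A further 1705 genes were above background on the HFHS array only, 103 on the STD array only and 10202 on neither.

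The study asked what the loss of Mir221 and Mir222 in adipocytes does to diet-induced obesity, and the flox/y pair shows the chow difference in fat that still has both microRNA genes. All mice were male, of strain C57BL/6J by the labels and C57BL/6JJcl by the study's methods, received their chow from 5 weeks of age and gave tissue at 16 weeks. The flox/y mice carried floxed Mir221/222 without Cre, and their AdipoKO littermates lost Mir221/222 in adipocytes through Cre under the Adipoq promoter. The arrays were GeneChip Mouse Gene 2.0 ST, which read each transcript by a set of short probes. The STD flox/y mouse was number 378 and the HFHS flox/y mouse number 388, and AdipoKO mice 387 (STD) and 384 (HFHS) are given beside them. Titles, descriptions and genotypes of the deposited labels give these groups, while the source field names another microRNA line and the opposite chow for both flox/y samples. If the source field held, every sign below would turn. A group of 1 mouse gives neither a replicate error nor a test, and each difference separates 2 mice and 2 arrays as well as 2 chows.

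White adipocytes store surplus energy as triglyceride. They make fatty acids from glucose and acetate or take them up from lipoproteins, join them to glycerol, and release them again by lipolysis under hormonal control. When the fat pad expands, its adipocytes secrete more leptin, its extracellular matrix is remodelled, and macrophages that take up lipid gather around stressed adipocytes. Epididymal fat lies on the epididymis and is covered by mesothelium, so a dissected pad also holds fibroblasts, endothelium, immune cells and surface epithelium. In such bulk tissue fewer cells of a type and less RNA per cell cannot be told apart.

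Markers of white adipocytes were present on all arrays. All 16 listed genes of white adipocyte identity were above background on each of the 4 arrays, and their summed expression value was 47810 on STD and 46190 on HFHS in flox/y. Adipoq, the adipokine adiponectin, read 1836 on STD and 1730 on HFHS, and the fatty acid binding protein Fabp4 read 7374 and 7691. The list of epididymis and testis genes had 1 of 19 members above background on any array, Odf1, at 2044 on STD and 2035 on HFHS. Mir221 and Mir222 themselves read 34.1 and 48.1 on STD and 13.3 and 12.2 on HFHS in flox/y, all under the background of their arrays, and they were under it in AdipoKO too. The genotypes are therefore not checked by these values.

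The lists with the highest and the lowest median in flox/y each had 1 array that stood apart. The HFHS flox/y array had 29 of 35 hepatocyte genes above background, against 15 on STD flox/y, 20 on STD AdipoKO and 15 on HFHS AdipoKO. Each array had its own background, which was lowest on HFHS flox/y. Of all 22180 genes 11875 were above it on HFHS flox/y, 10273 on STD flox/y, 11060 on STD AdipoKO and 11438 on HFHS AdipoKO. The STD flox/y array had the highest value of the 4 arrays for 28 of the 33 immediate early genes above background in the flox/y pair. These lists are described in full below, and their part in the other differences was not tested.

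Over the 10170 genes the median log2 difference was -0.03, and 90% of genes lay between -0.70 and 0.56. In this set 130 genes (1.28%) were at least 2-fold higher on HFHS and 173 (1.7%) at least 2-fold lower. Which direction held more genes turned with the processing, with 165 higher and 143 lower after centring the arrays, 152 and 145 after quantile normalization, and 269 and 212 without the filter on background. At 1.5-fold the counts were 459 higher (4.51%) and 758 lower (7.45%). Without the genes of the hepatocyte, acute phase and apolipoprotein lists 115 genes were at least 2-fold higher, and without the immediate early and heat shock genes 152 were at least 2-fold lower. The members next to the 2-fold line were Slc22a4, just inside at 2.00-fold higher, and Gpx3, just inside at 2.00-fold lower, with Pamr1 and Sema4c just outside. Of the genes at least 2-fold higher 6 were unnamed transcripts or predicted genes, and so were 6 of those at least 2-fold lower.

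**Figure D1:**
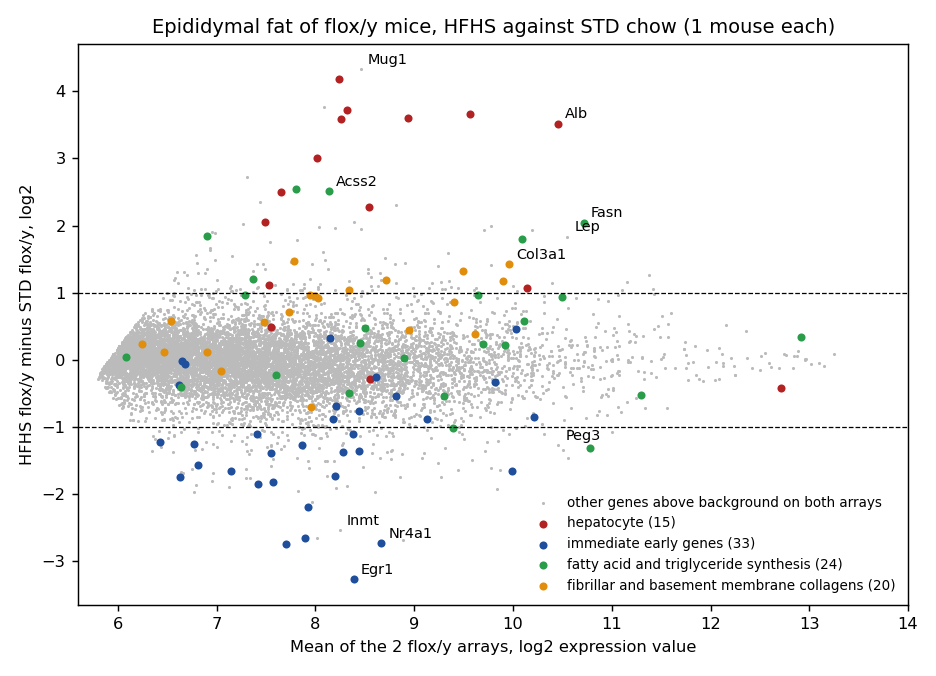
HFHS minus STD log2 difference (vertical axis) against the mean log2 expression value of both flox/y arrays (horizontal axis), with 1 point for each of the 10170 genes above background on both arrays and dashed lines at 2-fold. Coloured points are genes of 4 lists, of which hepatocyte genes reach 4.18 and immediate early genes -3.28.

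Among the described gene lists with at least 5 genes above background on both arrays, 12 had a median at least 0.3 above that of all genes and 3 at least 0.3 below it. The other 38 lay between -0.33 and 0.21 on the log2 scale. The highest medians belonged to hepatocyte genes (2.50), collagens (0.79), obesity-responsive genes (0.77) and lipid-associated macrophages (0.75). The lowest belonged to immediate early genes (-1.25), mesothelium (-0.44) and the circadian clock (-0.36).

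**Figure D2:**
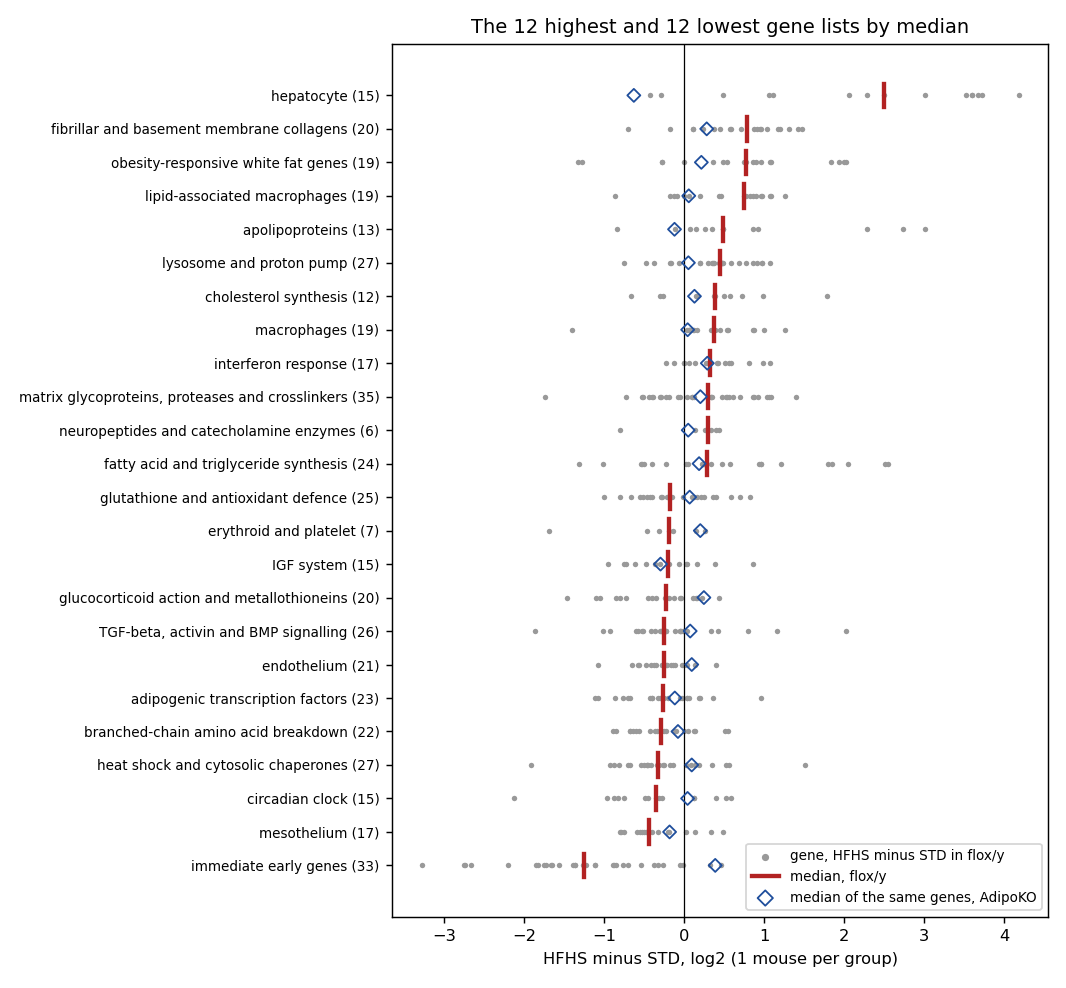
HFHS minus STD log2 differences of the 12 gene lists with the highest and the 12 with the lowest median in flox/y, with the number of genes above background on both arrays in parentheses. Dots are single genes in flox/y, bars the flox/y median and diamonds the median of the same genes in AdipoKO, which for hepatocyte genes are 2.50 and -0.63 and for immediate early genes -1.25 and 0.39.

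Enzymes that make fatty acids were higher on HFHS in the flox/y mouse, while the acyltransferase that opens triglyceride synthesis was lower. In the list of fatty acid and triglyceride synthesis 24 of 25 genes were above background on both arrays, 9 passed 1.5-fold upward and 2 downward, and the median was 0.29. Pnpla3, the lipid droplet protein adiponutrin, read 92.6 on STD and 539 on HFHS in flox/y, a 5.82-fold difference, and 161 and 582 in AdipoKO. Acss2, which makes acetyl-CoA from acetate, read 117 and 671 in flox/y and 142 and 647 in AdipoKO. For both genes the 2 HFHS arrays lay above the 2 STD arrays without overlap. Fasn, the fatty acid synthase, read 828 on STD and 3410 on HFHS in flox/y and 1975 and 3173 in AdipoKO, so that its STD flox/y value was the lowest of the 4 by more than 2-fold. Elovl6, which lengthens palmitate, read 62.9 and 226 in flox/y, and Tecr, the enoyl reductase that ends each round of elongation, 538 and 1427.

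Other genes of the same pathway differed less. Acaca, the cytosolic acetyl-CoA carboxylase, read 766 on STD and 902 on HFHS in flox/y, and Acly, which splits citrate to acetyl-CoA, 310 and 428. Scd1, the stearoyl-CoA desaturase, was already among the brightest genes at 6876 on STD and read 8672 on HFHS. Srebf1, a transcription factor of lipid synthesis, read 112 and 218 in flox/y and 124 and 162 in AdipoKO, a 1.94-fold difference in the flox/y pair.

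Of 10 genes that supply NADPH, which this synthesis uses, 3 passed 1.5-fold upward and none downward. The median of the 10 was -0.01, and 5 lay above 0. The 3 were Me1, Pgd and Idh1. Me1, the cytosolic malic enzyme, read 1046 on STD and 2002 on HFHS in flox/y and 1046 and 2058 in AdipoKO. Pgd of the pentose phosphate pathway read 434 and 897, and Idh1, the cytosolic isocitrate dehydrogenase, 352 and 737. The mitochondrial dicarboxylate carrier Slc25a10 read 67.8 on STD and 184 on HFHS in flox/y and 79.9 and 184 in AdipoKO. Tpi1, a glycolytic enzyme, was 2.68-fold higher in flox/y, from 272 to 730, whereas hexokinase Hk1 read 112 and 107.

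Promoters of this list often held a CCAAT box, the binding motif of the NF-Y complex. In RefSeq promoters of build GRCm38.p6, which run from 250 bases before to 50 bases after the start of a gene, the letters CCAAT on either strand were found for 13 of 19 list members with a promoter (68.4%), against 41.1% of all 27025 promoters. Among all genes at least 2-fold higher the share was 39.0%, near that of all promoters. Windows of 30 bases around the box are given for the 3 list members with the largest differences whose promoters held one, with the box or its reverse complement in capitals and the strand of the gene.
Pnpla3 (chr15:84167705-84167734, plus strand): tccagtacgcccATTGGgcctcccactggc
Acss2 (chr2:155517958-155517987, plus strand): gccctacccactATTGGatgcctagagcac
Fasn (chr11:120824592-120824621, minus strand): cggcctcggtgtCCAATtggtttcgatgtg
These matches describe letters and are not measured binding.

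Triglyceride synthesis and its neighbours split by enzyme. Dgat2, which adds the last fatty acid of triglyceride, read 588 on STD and 2035 on HFHS in flox/y and 632 and 1346 in AdipoKO, and was 3.46-fold higher in the flox/y pair. Dgat1, which catalyses the same step, read 762 and 523. Gpam, the mitochondrial acyltransferase of the first step, read 2773 on STD and 1116 on HFHS in flox/y and 1863 and 1173 in AdipoKO. Gpat3, an acyltransferase of the same step in the endoplasmic reticulum, was 3.36-fold lower by its brighter probe set, but its probe sets disagreed in size, at -1.75 and -0.53 on the log2 scale. Acacb, the carboxylase whose malonyl-CoA restrains mitochondrial fatty acid uptake, was 2.03-fold lower, from 956 to 471. Acsl4, which activates arachidonate, read 467 on STD and 164 on HFHS in flox/y and 291 and 287 in AdipoKO, so that the STD flox/y array was the high one.

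In lipolysis, the enzymes read alike on both chows and some of their regulators did not. The median of 14 lipolysis genes was 0.01. The triglyceride lipase Pnpla2 read 5004 on STD and 4689 on HFHS, and hormone-sensitive lipase Lipe 494 and 421. Abhd5, the co-activator of Pnpla2, read 1008 and 402 in flox/y and 583 and 694 in AdipoKO, and Hilpda, an inhibitor of Pnpla2, 276 and 89.1 in flox/y and 128 and 124 in AdipoKO. For both regulators the STD flox/y value was the highest of the 4 and the HFHS flox/y value the lowest.

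For 3 receptors of hormones and metabolites that act on lipolysis, both HFHS arrays lay above both STD arrays. Npr3, the clearance receptor of natriuretic peptides, read 599 on STD and 2280 on HFHS in flox/y and 726 and 1723 in AdipoKO. Ptger3, a prostaglandin E2 receptor that lowers cyclic AMP, read 165 and 685 in flox/y and 162 and 542 in AdipoKO, and was 4.14-fold higher in the flox/y pair. Hcar1, the lactate receptor, read 155 and 472 in flox/y and 177 and 324 in AdipoKO. Pde3b, the phosphodiesterase through which insulin lowers cyclic AMP, went the other way, from 3315 on STD to 2015 on HFHS in flox/y and from 3174 to 2170 in AdipoKO. These receptors were not on 1 list of their own, and Hcar1 was chosen after its values had been seen.

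Fatty acid uptake had a median of 0.10 over 16 genes, 2 of them past 1.5-fold upward and 2 downward. Lpl, lipoprotein lipase, read 7636 on STD and 6998 on HFHS, and the fatty acid translocase Cd36 read 6311 and 6077. Fabp5 read 199 and 354 in flox/y and 183 and 336 in AdipoKO, while Slc27a1, an insulin-regulated fatty acid transporter, read 2463 and 1392 in flox/y. Of the lipid droplet coat, Plin1 was 1.42-fold higher and Plin2 1.82-fold lower on HFHS.

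Cholesterol synthesis had a median of 0.38 over 12 genes above background on both arrays, with 3 past 1.5-fold upward and 1 downward. A further 7 of its 19 genes were above background on the HFHS array only, where background was lower, and none of these 7 had a bound of 2-fold. Nsdhl, which removes methyl groups from sterols, read 121 on STD and 416 on HFHS in flox/y and 186 and 432 in AdipoKO, a 3.43-fold difference in flox/y. The sterol reductase Tm7sf2 read 75.9 and 150, and Insig1, which holds sterol-sensing proteins in the endoplasmic reticulum, 392 and 649. Hmgcs1, the synthase that feeds the mevalonate pathway, went against the list, from 960 on STD to 607 on HFHS in flox/y and from 1330 to 512 in AdipoKO.

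The promoters of all 11 cholesterol synthesis members that had one held a CCAAT box (100%, against 41.1% of all promoters). Hmgcs1 alone among them held the sterol regulatory element, searched on both strands, which occurs in 1.44% of all promoters. Its window (chr13:119690204-119690233, plus strand) is shown with the element in capitals, because Hmgcs1 was the largest exception of the list.
Hmgcs1: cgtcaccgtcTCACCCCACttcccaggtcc

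Leptin and other markers of adipose expansion were higher on HFHS, and adiponectin and resistin were not. In the list of obesity-responsive white fat genes, 11 of 19 passed 1.5-fold upward and 2 downward, but 8 of its 21 genes also stand on the list of lipid-associated macrophages. Lep, which encodes leptin, read 793 on STD and 2821 on HFHS in flox/y and 530 and 2986 in AdipoKO, with both HFHS arrays above both STD arrays. Sfrp5, a secreted Wnt inhibitor, was below background on the STD flox/y array at 54.1 and read 565 on HFHS, and 138 and 383 in AdipoKO. Mest, an imprinted gene tied to adipocyte enlargement, read 439 and 1750 in flox/y but 1418 and 1578 in AdipoKO, so the STD flox/y array was the low one and the other arrays lay close together. Bmp3 read 76.5 and 311 in flox/y and 114 and 163 in AdipoKO. Rbp4, the retinol carrier, which is also on the hepatocyte list, read 782 and 1635 in flox/y and 937 and 1432 in AdipoKO. Retn, which encodes resistin, read 6788 and 7151 in flox/y.

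The Lep promoter held the palindrome TTGCGCAA, a high-affinity motif of C/EBP transcription factors. It was found in 0.207% of all promoters and in 0.36% of promoters of the genes above background on both arrays. Of the genes at least 2-fold different, 1 of 100 promoters of the higher (Lep itself) and 2 of 125 of the lower (Ptgs2 and Spty2d1) held it. It lies 55 bases before the start site of Lep (chr6:29060155-29060184, plus strand), and capitals mark the palindrome.
Lep: tggccggacagTTGCGCAAgtggcactggg
Cebpa, the C/EBP factor of mature adipocytes, read 491 on STD and 559 on HFHS in flox/y, and Cebpb 371 and 171.

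Other genes with large differences in both genotypes had roles outside lipid synthesis. Cdsn, an adhesion protein best known from the outer epidermis, read 76.8 on STD and 392 on HFHS in flox/y and 85.3 and 265 in AdipoKO. Aldh1a7, an aldehyde dehydrogenase, read 202 and 999 in flox/y and 330 and 1042 in AdipoKO. Ehd3, a protein of endosomal recycling, read 132 and 518 in flox/y and 164 and 518 in AdipoKO, and Hfe, which takes part in iron sensing, 148 and 580 in flox/y. In each of these 4 genes both HFHS arrays lay above both STD arrays. Lbp, the lipopolysaccharide binding protein, read 374 and 1125 in flox/y and 469 and 1084 in AdipoKO, and the small chaperone Hspb7 read 75.2 and 212 in flox/y and 112 and 532 in AdipoKO.

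Collagens were higher as a group on HFHS in flox/y. Of 20 collagen genes above background on both arrays, 11 passed 1.5-fold upward and 1 downward, against 4.51% and 7.45% of all genes. The summed value of all 23 collagen genes in the table was 5737 on STD and 10460 on HFHS in flox/y against 6219 and 7742 in AdipoKO. The HFHS flox/y array was the highest of the 4 for 16 of the 20 genes. Col1a1, a chain of the main fibrillar collagen, read 457 and 1138 in flox/y and 542 and 650 in AdipoKO. Col3a1, a fibrillar collagen of soft tissue, read 609 and 1628 in flox/y and 773 and 989 in AdipoKO. Col6a1, of the collagen VI network around adipocytes, was 2.24-fold higher in flox/y and 1.47-fold in AdipoKO. The exception was Col6a5, which read 318 on STD and 195 on HFHS. In AdipoKO 2 of these 20 genes were at least 1.5-fold higher and 18 lay above 0.

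Matrix glycoproteins and proteases followed less evenly, with 9 of 35 past 1.5-fold upward and 2 downward (median 0.29). Fn1, fibronectin, read 1892 on STD and 3943 on HFHS in flox/y and 1710 and 2236 in AdipoKO, and the small proteoglycan Lum 205 and 420 in flox/y. A pair of related proteases moved in opposite ways. Adamts5 read 373 and 984 in flox/y and 503 and 417 in AdipoKO, and Adamts1 read 849 and 253 in flox/y and 554 and 630 in AdipoKO.

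Macrophage transcripts were higher on HFHS in flox/y, and most genes of lipid-handling macrophages were among them. In the general macrophage list 4 of 19 genes passed 1.5-fold upward and 1 downward (median 0.37), and in the list of lipid-associated macrophages 10 of 19 passed it upward and 1 downward (median 0.75, and 0.43 over the 13 genes at 2 times background or above). The AdipoKO medians of the same lists were 0.04 and 0.06. Adgre1, the F4/80 antigen, read 125 on STD and 249 on HFHS in flox/y and 140 and 130 in AdipoKO. Trem2, the lipid receptor of these macrophages, read 95 and 159 in flox/y and 84.3 and 95.3 in AdipoKO. Mmp12, macrophage elastase, read 179 and 378 in flox/y and 85.6 and 78.5 in AdipoKO, so the STD flox/y array was also above both AdipoKO arrays. Gpnmb showed the same order, with 253 and 490 in flox/y and 143 and 111 in AdipoKO.

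Not every marker of the list took part. Cd9 read 396 on STD and 395 on HFHS, and the monocyte receptor Cd14 went from 262 to 99.0 in flox/y, against 122 and 175 in AdipoKO. The chemokines Ccl2 and Ccl7, which recruit monocytes, were lower on HFHS in flox/y, from 318 to 127 and from 280 to 129. In AdipoKO Ccl2 read 97.5 on STD and 280 on HFHS. Tnf, Il6 and Il1b, classical inflammatory cytokines, were below background on all 4 arrays.

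Lysosomal genes were higher on HFHS in flox/y, with 7 of 27 past 1.5-fold upward, 1 downward and a median of 0.45. Without the 5 genes shared with the list of lipid-associated macrophages, the median of 22 genes was 0.41. Ctsd, the protease cathepsin D, read 1960 on STD and 3852 on HFHS in flox/y and 1959 and 3093 in AdipoKO. Npc2, which carries cholesterol out of the lysosome, read 1356 and 2547 in flox/y and 1352 and 2096 in AdipoKO, whereas its partner Npc1 read 471 and 279 in flox/y and 538 and 299 in AdipoKO. Ctss, a protease of antigen-presenting cells, read 559 and 1092 in flox/y and 498 and 507 in AdipoKO. Ctsd and Npc2 were thus high on both HFHS arrays, and Ctss on the HFHS flox/y array.

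Of 21 lysosomal genes with a RefSeq promoter 8 held the E-box CACGTG (38.1%), a palindrome read alike on both strands, against 8.09% of all promoters and 11.9% of the genes above background on both arrays. The share was also high among immediate early genes, at 9 of 27 (33.3%). The core of the motif bound by TFEB, a regulator of lysosomal genes, is such an E-box. Tfeb itself differed by 0.03 on the log2 scale. The windows below show the E-box in capitals in 4 members, with the strand of the gene.
Ctsd (chr7:142387908-142387937, minus strand): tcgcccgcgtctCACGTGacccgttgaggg
Ctsl (chr13:64370739-64370768, minus strand): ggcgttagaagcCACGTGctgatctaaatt
Lamp1 (chr8:13159088-13159117, plus strand): agggcaagatatCACGTGgtccagcgccca
Mcoln1 (chr8:3500436-3500465, plus strand): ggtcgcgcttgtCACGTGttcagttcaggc
The protease Ctsl read 778 on STD and 1328 on HFHS in flox/y, the membrane protein Lamp1 1267 and 1742, and the lysosomal channel Mcoln1 180 and 245.

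Hepatocyte transcripts held the largest differences of the flox/y pair. Of 15 hepatocyte genes above background on both arrays 12 were at least 2-fold higher on HFHS, and another 14 were above background on the HFHS array only. Background was lower on that array, and 8 of these 14 had a bound of at least 2-fold. Alb, serum albumin, read 414 on STD and 4739 on HFHS in flox/y and 913 and 288 in AdipoKO. Mug1, a protease inhibitor of the plasma outside the list, read 78.6 and 1578 in flox/y and 138 and 37.9 in AdipoKO, and Tat, which breaks down tyrosine, read 141 and 1710 in flox/y and 180 and 55.2 in AdipoKO. Apoa1, the main protein of high-density lipoprotein, read 91.1 and 731 in flox/y and 95.7 and 81.8 in AdipoKO. In all of these genes 1 array, HFHS flox/y, was high and the other 3 were lower. Mup3 and Serpina1c, at 12.7-fold and 18.1-fold higher, belong to families of near-identical copies, so which copy was read is uncertain.

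The list was not uniform. Cyp7a1, Cyp3a11 and Cyp2c29, enzymes of bile acid and drug metabolism in liver, were below background on all 4 arrays. Cyp2e1, which fat also expresses, read 7762 on STD and 5779 on HFHS in flox/y. The median of the AdipoKO pair for the same 15 genes was -0.63, with 9 of them at least 1.5-fold lower on HFHS. The 1 gene at least 1.5-fold higher there was Rbp4, which is also counted among the adipokines. Without hepatocyte genes the 10 other apolipoprotein genes had a median of 0.30, among them Pltp, the phospholipid transfer protein, at 1153 on STD and 2190 on HFHS. Elovl3 and Slc27a2, counted among thermogenic genes and also expressed in liver, were above background on the HFHS flox/y array only.

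Immediate early genes, which many stimuli switch on within minutes, were lower on HFHS than on STD in the flox/y pair. Of 33 such genes 25 passed 1.5-fold downward, 20 of them 2-fold, and none passed 1.5-fold upward. Egr1, a zinc finger transcription factor, read 1044 on STD and 108 on HFHS in flox/y, 9.69-fold lower, but 91.9 and 287 in AdipoKO. Ier3 read 599 and 94.5 in flox/y and 105 and 245 in AdipoKO, and Fosb, of the AP-1 factors, 194 and 65.3 in flox/y and 69.4 and 185 in AdipoKO. In these genes the STD flox/y array was the highest of the 4, and the chow difference had the opposite sign in AdipoKO. The summed value of the list was 17390 on STD flox/y, 8271 on HFHS flox/y, 9106 on STD AdipoKO and 11560 on HFHS AdipoKO. Over the AdipoKO pair 12 of the 33 genes were at least 1.5-fold higher on HFHS and 25 lay above 0.

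Not all of this class followed the same order. Nr4a3, a nuclear receptor induced by cyclic AMP and feeding signals, read 540 on STD and 80.4 on HFHS in flox/y and 530 and 186 in AdipoKO, so both STD arrays lay above both HFHS arrays. Nr4a1 of the same family read 1051 and 157 in flox/y and 346 and 281 in AdipoKO. Cish, an inhibitor of cytokine signalling, was above background on the STD flox/y array alone at 377, with 48.1 on HFHS, a fold of at least 7.47 against the HFHS background. Its 2 probe sets gave -2.97 and -1.16 on the log2 scale. Socs3, of the same family of inhibitors, read 359 and 101 in flox/y and 87.6 and 133 in AdipoKO, and its 2 probe sets gave -1.83 and -1.06.

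In the heat shock list 6 of 27 genes passed 1.5-fold downward on HFHS and 1 upward (median -0.33). The STD flox/y array was the highest of the 4 for 18 of these 27 genes. The inducible chaperone Hspa1a read 803 on STD and 421 on HFHS in flox/y but 192 and 171 in AdipoKO, so both flox/y arrays lay above both AdipoKO arrays. Dnajb1, a co-chaperone, read 574 and 152 in flox/y and 128 and 234 in AdipoKO. The exception was Cryab, a small heat shock protein, at 248 and 707 in flox/y and 394 and 689 in AdipoKO. Of 20 genes of glucocorticoid action and metallothioneins 6 passed 1.5-fold downward and none upward. The STD flox/y array was the highest of the 4 for 7 of the 20, near the share of 31.7% over all 10170 genes. Among the 6 was Errfi1, an inhibitor of the EGF receptor, at 2504 and 908 in flox/y and 800 and 1696 in AdipoKO. Klf9 read 1462 and 679 in flox/y and 869 and 1227 in AdipoKO.

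Clock genes had a median of -0.36, with 5 of 15 at least 1.5-fold lower and 1 higher. Nfil3, a repressor of clock outputs, read 523 on STD and 120 on HFHS in flox/y and 136 and 156 in AdipoKO. Npas2 read 210 and 125 in flox/y and 207 and 122 in AdipoKO, and Dbp, a clock output, 117 and 176 in flox/y and 120 and 125 in AdipoKO. The sources used here do not give the hour of dissection, and its part in these values was not tested.

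Among the genes lower on HFHS in both genotypes was Inmt, an N-methyltransferase of indole compounds. Inmt read 733 on STD and 125 on HFHS in flox/y and 674 and 121 in AdipoKO. The genes of this paragraph beyond Inmt and Peg3 were chosen after their values had been seen. Peg3, a paternally expressed imprinted gene, read 2186 and 904 in flox/y and 2709 and 863 in AdipoKO, and its imprinted neighbour Zim1 read 260 and 102 in flox/y and 592 and 110 in AdipoKO. Slc4a4, a sodium bicarbonate cotransporter, read 765 and 289 in flox/y and 651 and 259 in AdipoKO. Crls1, which makes the mitochondrial lipid cardiolipin, read 1093 and 483 in flox/y and 1270 and 471 in AdipoKO. Klb, the co-receptor of the hormone FGF21, read 625 and 284 in flox/y and 904 and 429 in AdipoKO. In all of these genes both STD arrays lay above both HFHS arrays.

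Several genes of insulin signalling had the same order. Irs1, the insulin receptor substrate, read 320 on STD and 166 on HFHS in flox/y and 403 and 137 in AdipoKO, and the insulin receptor Insr 836 and 544 in flox/y and 987 and 532 in AdipoKO. Pik3cb, a catalytic subunit of phosphatidylinositol 3-kinase, read 477 and 201 in flox/y and 604 and 190 in AdipoKO. Over the whole list of insulin to mTORC1 signalling the median was -0.07, with 3 of 27 genes past 1.5-fold upward and 6 downward. Higher were Sesn3 and Deptor, both inhibitors of mTORC1, the latter at 289 and 504 in flox/y and 309 and 586 in AdipoKO. The glucose transporter Slc2a4 read 161 and 254 in flox/y, and Slc2a1, the transporter of most dividing cells, 368 and 170.

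Among adipogenic transcription factors 6 of 23 genes passed 1.5-fold downward on HFHS and 1 upward. Pparg, the nuclear receptor that drives adipocyte differentiation, read 1528 on STD and 837 on HFHS in flox/y and 1239 and 1319 in AdipoKO. Irf4, a nutritionally controlled factor of adipocytes, read 1023 and 483 in flox/y and 1678 and 553 in AdipoKO. The coactivator Ppargc1a was above background on the STD arrays alone, at 106 and 45.5 in flox/y and 116 and 36.5 in AdipoKO. Pparg thus differed in the flox/y pair by 1.83-fold and Irf4 by 2.12-fold, while in AdipoKO only Irf4 did so by more than 1.5-fold.

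Breakdown of branched-chain amino acids, which adipocytes use for lipid synthesis, had 6 of 22 genes at least 1.5-fold lower, none at least 1.5-fold higher and a median of -0.29. Dbt, of the branched-chain ketoacid dehydrogenase, read 816 on STD and 441 on HFHS in flox/y and 612 and 531 in AdipoKO. Ppm1k, the phosphatase that activates this complex, read 330 and 182 in flox/y and 316 and 170 in AdipoKO. Bcat2, which carries out the first transamination, read 289 and 189 in flox/y and 184 and 223 in AdipoKO.

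Targets of the amino acid response differed among themselves. Asns, asparagine synthetase, read 592 on STD and 248 on HFHS in flox/y and 590 and 368 in AdipoKO, and Chac1, which degrades glutathione, read 235 and 106 in flox/y and 222 and 107 in AdipoKO. Xbp1, a factor of the unfolded protein response, read 1492 and 735 in flox/y and 846 and 1445 in AdipoKO, whereas the chaperone Hspa5 read 529 and 547. Over 28 genes of endoplasmic reticulum stress and ATF4 targets 4 passed 1.5-fold upward and 3 downward (median 0.13).

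The C/EBP-ATF response element TGATGCAA, searched on both strands, was found in 6 of 125 promoters of genes at least 2-fold lower on HFHS (4.8%) and in 1 of 100 of those at least 2-fold higher. It occurs in 1.03% of all promoters and in 0.748% of promoters of the genes above background on both arrays. These 6 windows are printed because they share the element, shown in capitals in either orientation. All lie on the plus strand.
Chac1 (chr2:119351038-119351067): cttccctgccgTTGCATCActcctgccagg
Chchd10 (chr10:75933034-75933063): ttggcacacgcTGATGCAAatggctgatgc
Fgl2 (chr5:21372604-21372633): gtctgagactgTGATGCAAatgcgcccgcc
Gadd45g (chr13:51846563-51846592): tgccgcctcatTTGCATCAgaaagcgggcg
Grhl1 (chr12:24580487-24580516): ttttgtcagctTGATGCAAacctagacaaa
Mmrn1 (chr6:60944119-60944148): tcttgatttccTGATGCAAtaggacaaaac
The 6 genes did not share an order over the arrays. Chchd10, a mitochondrial protein, read 623 on STD and 294 on HFHS in flox/y and 841 and 305 in AdipoKO, and so was low on both HFHS arrays. Fgl2 read 285 and 116 in flox/y and 181 and 326 in AdipoKO, and Mmrn1 224 and 69.8 in flox/y and 159 and 322 in AdipoKO. Chchd10, Fgl2, Gadd45g and Grhl1, were chosen after their values had been seen.

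Mesothelial genes had a median of -0.44, with 4 of 17 at least 1.5-fold lower, against 7.45% of all 10170 genes. Upk3b, a surface protein of mesothelium, read 790 on STD and 559 on HFHS in flox/y and 647 and 436 in AdipoKO, and Gpm6a 582 and 345 in flox/y and 458 and 254 in AdipoKO. Endothelial genes had a median of -0.26, with 2 of 21 at least 1.5-fold lower, near the share of 7.45% of all genes. In AdipoKO the median of the same endothelial genes was 0.09. Nos3, the endothelial nitric oxide synthase, read 259 and 123 in flox/y and 281 and 204 in AdipoKO, while the junction protein Cdh5 read 2065 and 2032. Of smooth muscle, Acta2 read 1462 and 1495, and Cnn1, a contractile regulator, 216 and 55.2 in flox/y and 126 and 248 in AdipoKO. Genes of adipose progenitors and fibroblasts had a median of 0.10, with 4 of 17 past 1.5-fold upward and 3 downward. The shares of all genes were 4.51% and 7.45%. The progenitor marker Pdgfra read 570 and 571, the microfibril protein Mfap5 666 and 1258, and the coagulation starter F3 468 and 226.

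Energy metabolism and protein synthesis lay near the median of all genes. Of 37 genes of the respiratory chain and ATP synthase 1 passed 1.5-fold upward and none downward, with a median of 0.04, and the 19 genes of the TCA cycle had a median of 0.03 with none past 1.5-fold. The median of 27 cytosolic ribosomal protein genes was -0.10, again with none past 1.5-fold. Ucp1 and Cidea, genes of thermogenic fat, were below background on all 4 arrays. Cpt1a, which admits fatty acids to mitochondria, read 245 on STD and 447 on HFHS in flox/y and 277 and 298 in AdipoKO. The proliferation marker Mki67 read 85.0 and 194 in flox/y and 93.3 and 206 in AdipoKO. The 12 cell cycle genes above background on both flox/y arrays had a median of 0.11. Another 10 of the 31 genes of that list were above background on the HFHS array only, where background was lower. None of these 10 had a bound of 2-fold.

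Interferon-responsive genes had a median of 0.32 in flox/y and 0.29 in AdipoKO, with 3 of 17 past 1.5-fold upward and none downward in flox/y. Iigp1, an interferon-induced GTPase, read 96.8 on STD and 203 on HFHS in flox/y and 68.0 and 205 in AdipoKO, and Gbp7 read 143 and 283 in flox/y and 143 and 289 in AdipoKO. In both genes the HFHS arrays lay above the STD arrays. The interferon-stimulated response element was found in 9 of 13 promoters of this list (69.2%), against 3.99% of all promoters.

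Set beside the AdipoKO pair, which shares no array with the flox/y pair, more of the higher genes than of the lower genes had the same direction. Of the 130 genes at least 2-fold higher in flox/y, 100 were above 0 in AdipoKO (76.9%), against 47.0% of all 10170 genes. At least 1.5-fold higher in AdipoKO were 62 of the 130 (47.7%), against 3.62% of all genes. In the opposite direction 12 were at least 1.5-fold lower. Of the 173 genes at least 2-fold lower, 72 were above 0 in AdipoKO (41.6%), near the 47.0% of all genes. At least 1.5-fold lower in AdipoKO were 49 of the 173 (28.3%), against 3.86% of all genes, and 28 were at least 1.5-fold higher (16.2%). The order of the arrays within these genes is partly fixed, because they were chosen by the flox/y difference. Among the 173 lower genes the STD flox/y array was the highest of the 4 for 148 and the HFHS flox/y array the lowest for 131, against 31.7% and 29.0% of all genes. Among the 130 higher genes the STD flox/y array was the lowest for 93 and the HFHS flox/y array the highest for 112, against 25.4% and 26.6% of all genes. Both HFHS arrays lay above both STD arrays for 99 of the 130 (23.5% of all genes), and below them for 100 of the 173 (29.8% of all genes). The spread of the chow difference over the 10170 genes was 0.43 on the log2 scale (SD across genes) in flox/y and 0.34 in AdipoKO.

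**Figure D3:**
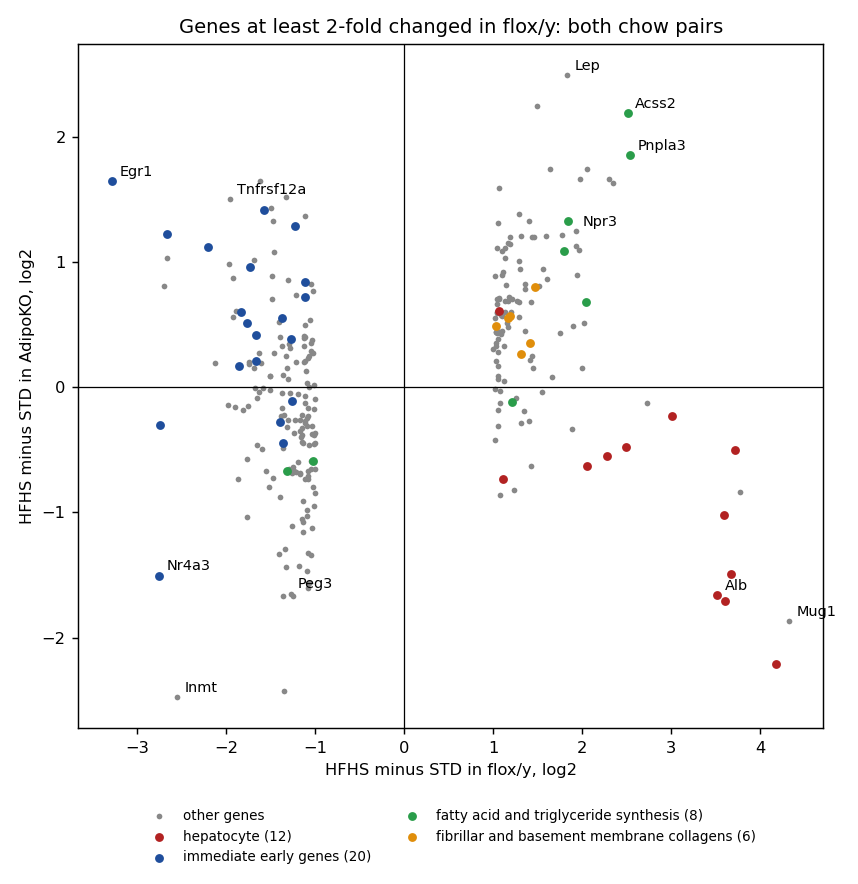
HFHS minus STD log2 difference in flox/y (horizontal axis) and in AdipoKO (vertical axis) of the 130 genes at least 2-fold higher and the 173 at least 2-fold lower in flox/y, with genes of 4 lists coloured. Lep, Acss2 and Pnpla3 lie high on both axes, Inmt low on both, and Alb, Mug1 and Egr1 in quadrants of opposite sign.

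The genes of this paragraph were chosen after their values had been seen. Among those higher in both pairs, Tlcd2, a membrane protein of phospholipid metabolism, read 69.4 on STD and 216 on HFHS in flox/y and 62.7 and 210 in AdipoKO. Serpinf1 and Srpx2, both secreted proteins, were in this group, as were the annexins Anxa1 and Anxa2. Among the genes lower in both, Gpcpd1, which hydrolyses glycerophosphocholine, read 701 and 272 in flox/y and 803 and 253 in AdipoKO, and Sephs2, needed to make selenoproteins, read 551 and 267 in flox/y and 653 and 258 in AdipoKO. The plasma selenoprotein Gpx3 read 703 and 351 in flox/y and 638 and 355 in AdipoKO.

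**Figure D4:**
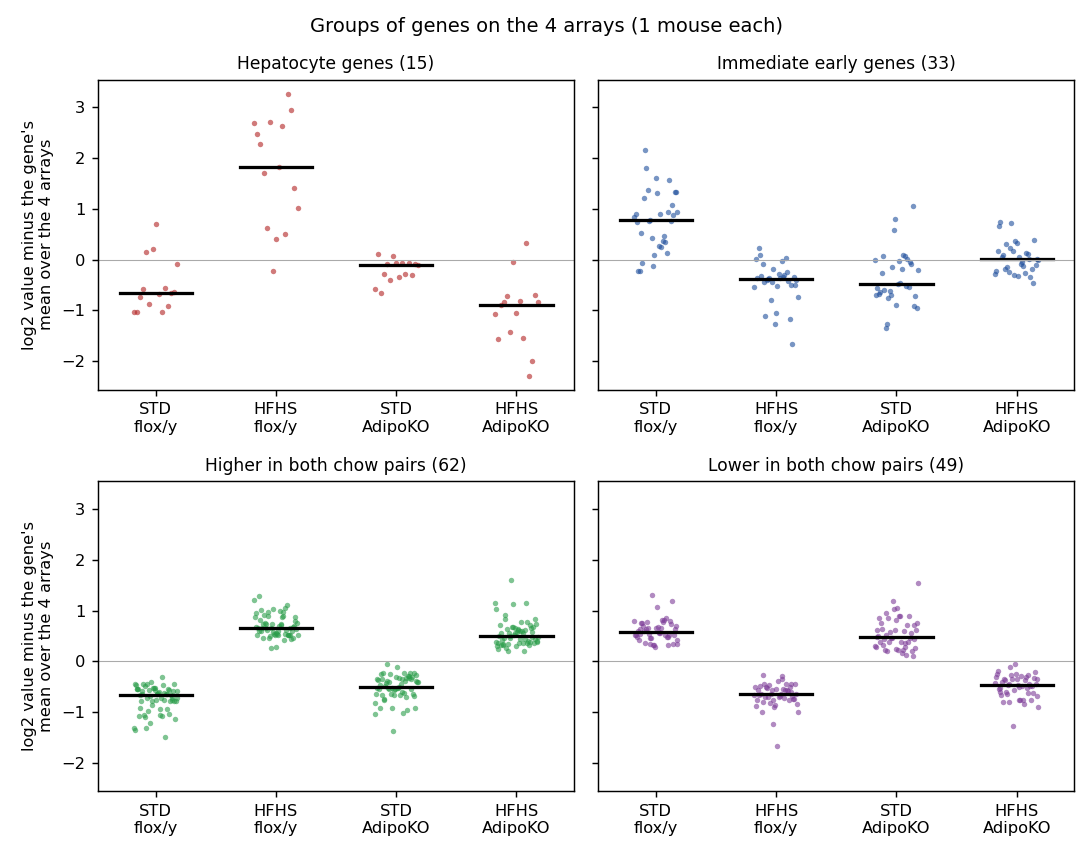
Log2 value of each gene minus its mean over the 4 arrays, by array, for the 15 hepatocyte genes, the 33 immediate early genes, the 62 genes higher in both chow pairs and the 49 lower in both, with dots for genes and bars for medians. Hepatocyte genes are high on the HFHS flox/y array and immediate early genes on the STD flox/y array, while the other panels, whose genes were chosen for these differences, split by chow.

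Genes above background on 1 flox/y array only have a bound in place of a fold, taken against the background of the dim array. Of the 1705 genes seen on HFHS only, 43 had a bound of at least 2-fold, and 164 had a lower deposited value on HFHS than on STD, since background was 50.5 on the HFHS array and 60.1 on the STD array. With 1 background level for both arrays 735 genes were above it on HFHS only and 353 on STD only. Among the largest bounds on HFHS were those of liver genes, with Mup20 at least 33.6-fold, Fgb at least 11.8-fold and Fgg at least 9.23-fold higher. The bound of Sfrp5, a secreted Wnt inhibitor outside the liver genes, was larger than that of Fgg. Lctl, a lactase-like protein, read 43.7 on STD and 379 on HFHS in flox/y and 44.1 and 170 in AdipoKO. Mid1, a ubiquitin ligase, had a bound of at least 7.22-fold, but its probe sets went opposite ways, at -0.26 and 3.15 on the log2 scale. Of the 103 genes seen on STD only 7 had a bound of at least 2-fold, among them Cish, Ier2 and Ppargc1a.

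Predicted targets of miR-221 and miR-222 were described as a list because this mouse is the control of the knockout. The mature microRNAs share the seed that pairs with targets, shown in capitals (bases 2 to 8). Both lie on the minus strand of the X chromosome in RefSeq build GRCm38.p6.
mmu-miR-221-3p (chrX:19146307-19146329): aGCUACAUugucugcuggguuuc
mmu-miR-222-3p (chrX:19146901-19146923): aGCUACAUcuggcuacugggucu
Of the 356 symbols on the target list 301 were found in the table and 217 were above background on both flox/y arrays. Their median difference was -0.14, against -0.03 for all genes. Of the 217, 5 passed 1.5-fold upward and 30 downward, against 4.51% and 7.45% of all 10170 genes. Without the immediate early genes among them the median of 216 was also -0.14. In AdipoKO the same 217 genes had a median of -0.05, with 9 past 1.5-fold upward and 13 downward. The shares of all 10170 genes in AdipoKO were 3.62% and 3.86%. Whether the microRNAs had a part in these differences was not tested. Ddit4, an inhibitor of mTORC1 on this list, read 187 on STD and 202 on HFHS in flox/y and 483 and 384 in AdipoKO. At least 2-fold higher were Fmr1, an RNA-binding protein, from 546 to 1145, and the kinase Hipk2, from 742 to 1503. Lower were Etv3, from 410 to 144, and Cdkn1c, an imprinted inhibitor of the cell cycle, from 140 to 64.0. In AdipoKO Fmr1 and Hipk2 were also at least 1.5-fold higher on HFHS, and Etv3 was also at least 1.5-fold lower. The level of the mature microRNAs was not read by these arrays.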

How the data were processed

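Total RNA of epididymal fat was hybridised to 4 arrays, 1 mouse each. The values deposited by the authors are log2 expression of 41345 probe sets, already normalized. The sources used here do not give the method. The column medians lay between 5.39 and 5.42, and the log2 of the expression values in the heads of the study's supplementary tables differed from the deposited values by at most 4.8e-05. Expression values in the text are the log2 values turned back to a linear scale, in arbitrary units. Background was the average of the negative controls, 60.07 on STD and 50.46 on HFHS in flox/y, and 55.43 on STD and 52.80 on HFHS in AdipoKO. Arrays have no read depth, and their number limits the precision.

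Groups came from titles, descriptions and genotypes. By the platform annotation 23521 probe sets had 1 symbol, 1820 had several and 16004 were unnamed here. Where a gene had more than 1 probe set (1082 genes), the brightest on average was used. No column of the authors' own comparisons was used. Without residual degrees of freedom no test was made. Counts use a 2-fold or 1.5-fold threshold, and lists are described by their median and counts, over members above background on both arrays. The 60 lists and the motifs were chosen with earlier results of these data known. Named genes were the 30 largest differences in each direction, the 12 largest bounds in each direction, the first 3 and the 5 largest of each list, and Mir221, Mir222 and Ddit4. Targets came from the study's supplementary list. Other gene names were chosen after their values were seen. Alternatives were quantile normalization, centring, a lowess curve, other filters and thresholds, the mean of probe sets and all probe sets. Python 3.11.15, numpy 2.4.6, pandas 2.3.3, statsmodels 0.14.6 and matplotlib 3.10.9 were used, and the steps were tested on simulated data.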

Additional observations from a re-analysis of the deposited data

Results flagged for a closer look

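Some gene lists and genes had chow differences of opposite sign in the flox/y pair and in the AdipoKO pair. Each difference is between 1 mouse and 1 mouse, and whether the pairs differ was not tested. The values are HFHS minus STD on the log2 scale. The median of the hepatocyte list was 2.50 in flox/y and -0.63 in AdipoKO. Of its genes, Serpina1c had 4.18 and -2.21, Mup3 3.67 and -1.49, Tat 3.60 and -1.71, Cps1 3.59 and -1.02, and Alb 3.52 and -1.66. Mug1, a liver gene outside the list, had 4.33 and -1.87. The median of the immediate early list was -1.25 in flox/y and 0.39 in AdipoKO. Of its genes, Egr1 had -3.28 and 1.65, Ier3 -2.66 and 1.22, and Egr2 -2.20 and 1.12. Outside these lists, Chka, which phosphorylates choline, had -2.67 and 1.03 by its brighter probe set (-1.22 in flox/y by the other), Tnfrsf12a, the receptor of the cytokine TWEAK, -1.95 and 1.503, and Mmrn1, a protein of platelets and lymphatic endothelium, -1.69 and 1.02.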

How the results depend on the processing

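No paired analysis was possible because each group held 1 mouse, and for the same reason no array could be left out within a group. No direction of a named gene or list far from the median turned under any alternative run. Counts of genes at least 2-fold higher moved by over 1.5 times with the filter and threshold, to 77 with a filter at 2 times background, 196 with a filter on the mean of the pair, 269 without a filter and 459 at 1.5-fold. Those at least 2-fold lower came to 758 at 1.5-fold and 330 over all probe sets. The share of higher genes among those past 2-fold was 42.9%, and 53.6% with the arrays centred (165 higher, 143 lower), 51.2% after quantile normalization, 50% after a lowess curve and 55.9% without a filter. No scaling moved the median of all genes by over 0.1. With the filter at 2 times background the medians were 1.11 for hepatocyte genes, 0.93 for collagens, 0.51 for obesity-responsive genes, 0.43 for lipid-associated macrophages, 0.34 for apolipoproteins, -0.47 for the clock and -1.12 for immediate early genes. Without a filter they were 2.06 for hepatocyte genes, 0.58 for collagens, 0.60 for lipid-associated macrophages, 0.18 for matrix glycoproteins, 0.15 for neuropeptides and catecholamine enzymes and -0.33 for mesothelium. With the filter on the mean of the pair, hepatocyte genes had 3.01 and matrix glycoproteins 0.16, and after quantile normalization matrix glycoproteins had 0.19. Of the single genes Gpat3 moved, to -1.14 with the mean of its probe sets. Chosen after seeing the data were the counts without listed genes, given in the report, and 1 background level for both arrays, with 130 higher and 161 lower. Low values are limited by background, and the cause of these shifts was not tested.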
